A study of Mus musculus with 24 samples.

Results

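Ly6C low monocytes of mice that lack both SLC29A3 and TLR7 were compared with Ly6C low monocytes of WT mice, across all genes. The comparison holds 8 of the 24 libraries of the series, chosen by their labels: 4 from Slc29a3-/- Tlr7-/- mice, called DKO here, and 4 from WT mice. The series also holds 4 Ly6C low libraries of Slc29a3-/- mice, which entered the statistical model and are used here as a reference, and the 12 Ly6C hi libraries of the same 3 genotypes. All mice were C57BL/6 and untreated, and their ages are not given. The WT mice were bought from a breeder, whereas the mutants were made with CRISPR/Cas9, by an insertion with a stop codon in Slc29a3 and by a small deletion in Tlr7, so that every cell of a DKO mouse carries both mutations. The DKO mice thus share the loss of SLC29A3 with the Slc29a3-/- mice and differ from them by the loss of TLR7.

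Ly6C low monocytes, also called patrolling monocytes, are the mature monocytes of blood and spleen. They arise from Ly6C hi monocytes under the transcription factor NR4A1, stay close to the vessel wall, and take up debris and immune complexes, for which they carry a high level of the Fc receptor FCGR4. SLC29A3 carries nucleosides out of the lysosome after RNA and DNA have been broken down there. TLR7 sits in endosomes and lysosomes, senses single-stranded RNA together with guanosine, and signals to NF-kB and to interferon regulatory factors. The study asked what the stored nucleosides do to monocytes through TLR7, and the DKO mice show the transcriptome of cells that lack the transporter but also lack this sensor.

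The cells were sorted from spleens after magnetic removal of CD3+, NK1.1+, Ly6G+ and TER-119+ cells, among others, as CD11b+, Ly6C low and Fcgr4 high and negative for NK1.1, Ly6G and Siglec-F; the labels call them macrophages and the paper monocytes. RNA was turned into libraries with a kit that amplifies 1 short stretch of each gene, so that a value compares libraries for 1 gene and not 1 gene with another. Values are reads scaled to a library total of 1000000 (RPM). The 8 libraries held about 12382331 to 14572266 reads, inferred from the even step between low values, and 3 reads corresponded to 0.206 to 0.242 RPM. Nothing in the labels says that replicates came from separate mice, so P values measure the spread between these libraries only.

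Some libraries stood apart before any gene was considered. WT replicates 1 to 3 carried neighbouring barcodes (11 to 13) and WT replicate 4 carried barcode 35. On the log2 scale the distance over all genes was 27.4 to 44.4 among WT replicates 1 to 3 and 67.4 to 78.1 from these to WT replicate 4, which overlapped the 66.3 to 114.5 from these to the DKO libraries. Transcripts of the sex-linked genes split the libraries in the same place: Ddx3y, on the Y chromosome, was at 0 RPM in WT replicates 1 to 3 and at 196.8 in WT replicate 4, and in the DKO libraries it was at 137.1, 98.88, 148.2 and 0. DKO replicate 2 also held 425.3 RPM of Xist, the RNA of the inactive X chromosome, so that both signals were present in 1 library. DKO replicates 3 and 4 stood apart in another way: at 159 genes both were more than 2-fold below the other 10 Ly6C low libraries, against at most 6 genes for each of the other 65 pairs. Results are therefore given with all libraries, against WT replicate 4 alone, and, as a check chosen after seeing the data, without DKO replicates 3 and 4.

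Of 10317 genes tested, 627 (6.08%) rose and 1508 (14.6%) fell in DKO against WT. A gene was called when limma gave it more than a 1.5-fold change with an unadjusted P under 0.05. With the Benjamini-Hochberg adjusted P also under 0.05, 235 (2.28%) rose and 622 (6.03%) fell. The 4 DKO values lay wholly outside the 4 WT values at 1269 genes (12.3%), 311 with DKO above and 958 with DKO below. The median log2 fold change of all genes was -0.10, and the balance of the calls moved with the scaling: 29.4% of called genes were higher when values were scaled by the library total, and 39.9% (828 higher, 1249 lower) with relative log expression (RLE) scaling.

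The choice of WT library moved the counts further. Against WT replicate 4 alone, 179 genes (1.74%) were called higher and 1136 (11%) lower, the median of all genes moved to -0.29, and 5 and 1 genes passed the adjusted P. This balance turned over with RLE scaling, to 524 higher and 296 lower. Of the genes called in the whole comparison, 82 higher and 489 lower were called in the same direction against WT replicate 4. Without DKO replicates 3 and 4, 496 of 10209 genes (4.86%) were called higher and 1048 (10.3%) lower. In all, 47 higher and 260 lower genes were called in the whole comparison and under both checks.

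The mutated genes came first. Slc29a3 was measured at 47.25, 40.69, 45.09 and 74.03 RPM in the WT libraries and at 47, 52.81, 47.59 and 74.15 RPM in the DKO libraries. Tlr7 was at 478.9, 298, 331.2 and 414.3 RPM in WT and at 627.1, 541.7, 584 and 354.8 RPM in DKO. The groups overlapped for both genes, with log2 fold changes of 0.11 for Slc29a3 and 0.46 for Tlr7 (limma adjusted P = 0.75 and 0.12). Where the amplicons lie relative to the insertion and the deletion is not given, so these values do not check the genotype labels.

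Genes of the sort gave a clearer picture. Fcgr4, the low-affinity activating receptor for IgG used to gate these cells (chromosome 1, 171018920 to 171029761, mm10), was at 781.2, 769.1, 820.7 and 604.8 RPM in WT and at 1306, 1683, 1582 and 1750 RPM in DKO. Every DKO library lay above every WT library, and the gene rose by 1.09 ± 0.15 on the log2 scale (SE, adjusted P = 0.0034). It rose against WT replicate 4 as well (1.38). In Slc29a3-/- libraries the level was higher still, 2649 ± 337.3 RPM (SD, n = 4), and DKO was below it by a called log2 difference of -0.75 (adjusted P = 0.018). Because the gate was set on FCGR4 protein, this level describes the sorted cells and not the monocyte pool. Itgam, which encodes CD11b, overlapped between the groups (-0.16). Klrb1c, which encodes the NK1.1 antigen gated out of the sort, was at 36.97, 31.09, 20.93 and 5.135 RPM in WT and between 0 and 2.827 RPM in DKO, and fell (-3.35, adjusted P = 0.0084). Ly6g, the neutrophil antigen gated out, was at 4.613, 7.96, 4.706 and 0 RPM in WT and at 0 in all DKO libraries, which allows up to 0.242 RPM. Ly6c2 was not analysed here.

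The cells carried the genes that define their subset. Summed over 19 Ly6C low markers measured, the level was 24630.8 ± 4441 RPM in WT and 28530.7 ± 3155 in DKO (SD, n = 4 each), against 7763 ± 742.5 in Ly6C hi WT libraries. Among them 4 rose (Fcgr4, Itgal, Pecam1 and Pou2f2), 1 fell (Eno3), and 14 were not called, where 6.08% of all genes rose and 14.6% fell. Their median log2 fold change was -0.04. Nr4a1, the factor that Ly6C low monocytes depend on, was at 5028, 4421, 5241 and 1418 RPM in WT and at 2337, 2777, 2074 and 5820 RPM in DKO. These values overlapped (-0.27), and its sign turned against WT replicate 4, where Nr4a1 was called higher in DKO (1.07). Treml4, a receptor of this subset, and Cx3cr1, the fractalkine receptor, also overlapped, at -0.05 and -0.06. Csf1r, the receptor for the growth factor M-CSF, was at 1982, 1380, 1519 and 1241 RPM in WT and at 2084, 2068, 2892 and 4011 in DKO, and it rose (0.82, adjusted P = 0.033), though not without DKO replicates 3 and 4 (0.46).

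Of 12 Ly6C hi markers measured, 6 fell and none rose, where 14.6% of all genes fell and 6.08% rose. Their median was -1.01, against -0.10 for all genes. Against WT replicate 4 alone 2 fell, none of them among the 6, and the median was -0.82. F13a1, coagulation factor XIII, was one of those that fell (-1.86, adjusted P = 0.052). Ccr2, the chemokine receptor of Ly6C hi monocytes, went with single libraries: it was at 23.76, 31.91, 26.9 and 223.4 RPM in WT and at 106.8, 43.84, 10.89 and 1.758 RPM in DKO, and it was not called (-1.25). The summed level of the 12 markers was 1915 ± 80.16 RPM in WT and 1679 ± 165.4 in DKO, well below the 10530.7 ± 2850 of Ly6C hi WT cells. In these bulk libraries, fewer cells of one kind and less RNA per cell cannot be told apart.

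The largest increases were in genes with little expression in WT. AY761185, a gene that the annotation places between Defb33 and Defa21 in the beta- and alpha-defensin cluster of chromosome 8 (20943694 to 20944710, mm10), was at 4.613, 4.323, 3.301 and 0.077 RPM in WT and at 49.02, 17.23, 88.31 and 110.5 RPM in DKO. It rose by 4.0 ± 0.56 on the log2 scale (adjusted P = 0.0034). The 3 amplicons with a symbol that begins with Defa, the prefix of alpha-defensins, reached no more than 0.081 RPM in the Ly6C low libraries. LOC105247310, which had no position in the annotation used, was at 0.28, 2.059, 0.562 and 0.23 RPM in WT and at 16.39, 8.816, 29.2 and 48.1 RPM in DKO, and rose by 3.76 ± 0.44.

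Apol8, a member of the apolipoprotein L family on chromosome 15 (77747798 to 77757003), was at 5.242, 1.99, 3.301 and 0.383 RPM in WT and at 42.48, 15.41, 64.24 and 70.63 RPM in DKO, and rose by 3.72 ± 0.49. Spata25, which is named for its expression in testis, was at 3.005, 2.196, 1.896 and 0.613 RPM in WT and at 18.33, 9.61, 21.39 and 31.8 RPM in DKO, and rose by 2.82 ± 0.34. These 4 genes shared an order within DKO, with replicate 2 lowest and replicate 4 highest in each, and none overlapped WT. They also shared the level in the single knockout, where Slc29a3-/- means were 3.281 (AY761185), 0.995 (LOC105247310), 3.522 (Apol8) and 2.465 RPM (Spata25), close to WT. DKO was above Slc29a3-/- at each of them, by 3.71, 3.53, 3.30 and 2.53 (adjusted P between 0.00085 and 0.0031).

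**Figure D1:**
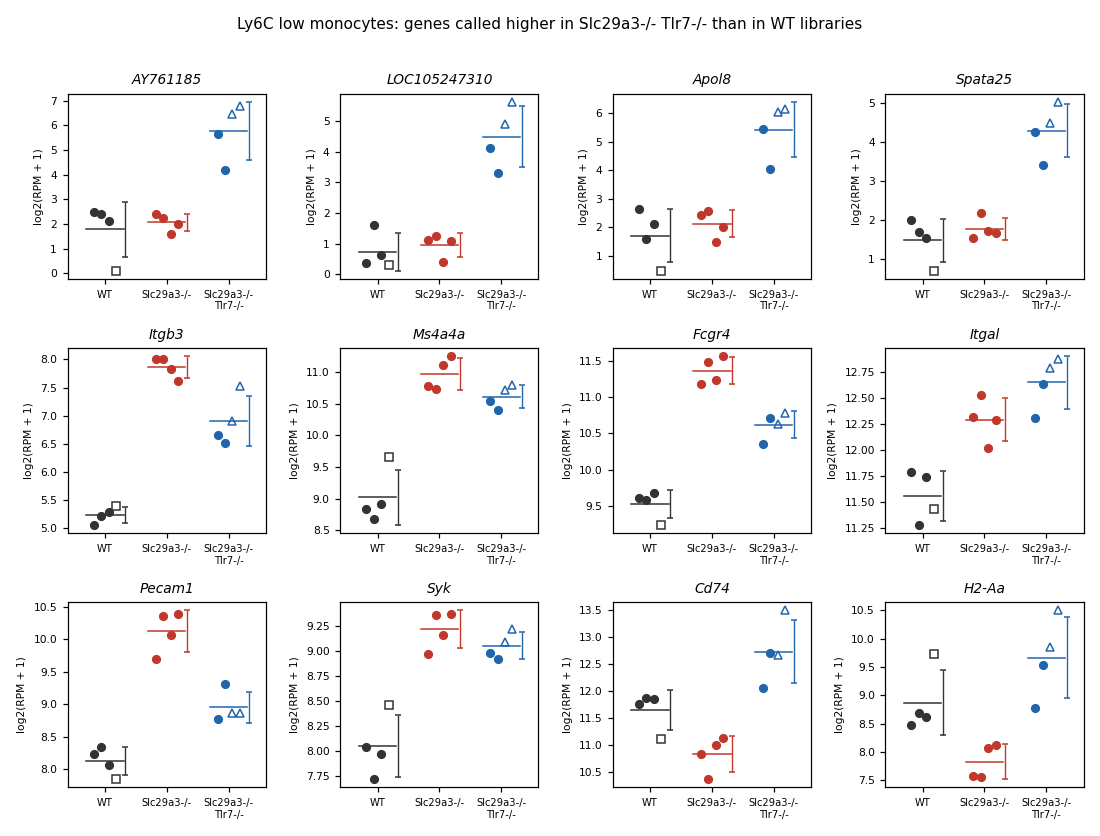
Log2(RPM + 1) of 12 genes called higher in DKO than in WT Ly6C low libraries, 1 point per library; lines are means and bars the SD of 4 libraries. Open squares are WT replicate 4 and open triangles DKO replicates 3 and 4. For AY761185, LOC105247310, Apol8 and Spata25 the Slc29a3-/- libraries lie with WT, whereas for Itgb3, Fcgr4 and Pecam1 they lie above DKO, and for Cd74 and H2-Aa below WT.

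Itgb3 and Ms4a4a rose too, and their means were also above WT in the single knockout. Itgb3, the beta-3 integrin that pairs with alpha-V in phagocytes and with alpha-IIb in platelets, was at 32.22, 36.16, 37.79 and 41 RPM in WT and at 100.1, 89.82, 118.8 and 182.8 RPM in DKO. It rose by 1.66 ± 0.20 (adjusted P = 0.0016) and by 1.51 against WT replicate 4. Ms4a4a, a membrane protein of macrophages, was at 456.9, 406.7, 480.6 and 806.9 RPM in WT and between 1348 and 1784 RPM in DKO (1.60, adjusted P = 0.0026). The Slc29a3-/- means were 234 RPM for Itgb3, above DKO by a called difference (-0.97, adjusted P = 0.018), and 2033 RPM for Ms4a4a, where the difference from DKO was not called (-0.36). Among the other large increases were Cndp2, a cytosolic dipeptidase (1.63), Cyp27a1, the sterol 27-hydroxylase (1.49), and Erp44, a chaperone of the early secretory pathway (1.47), with adjusted P of 0.015, 0.025 and 0.023. Kctd21 (1.47), Kcnip3, a calcium-binding partner of potassium channels (1.42), and AI504432 (1.40) completed the 12 largest that held a fold of 1.5 against WT replicate 4.

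Integrins and adhesion molecules rose more often than they fell: 6 of 23 measured rose, 2 fell and 15 were not called, with a median of 0.15. Among all genes tested, 6.08% rose and 14.6% fell. Itgal, the alpha chain of LFA-1, was at 3525, 2483, 3412 and 2769 RPM in WT and at 5058, 6350, 7070 and 7528 RPM in DKO. The groups were fully apart, and the gene rose by 1.09 (adjusted P = 0.0067) and by 1.21 against WT replicate 4. Pecam1, the junctional adhesion molecule CD31, was at 300.5, 324.3, 266.4 and 228.7 RPM in WT and at 437.9, 631.5, 462.6 and 464.9 RPM in DKO and rose by 0.83 (adjusted P = 0.02). It stood much higher in Slc29a3-/- libraries, at 1137 ± 237.7 RPM, and DKO was below them by -1.18 (adjusted P = 0.0036). Selplg, the P-selectin ligand, and Itgax, the CD11c integrin chain, rose less (0.75 and 0.60). Itga6, the laminin-binding alpha-6 chain, was among the members that fell (-1.07, adjusted P = 0.14), and it was at 0.07 against WT replicate 4.

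Among 31 Fc receptors, activating immune receptors and their ITAM adaptors, 3 rose and 9 fell, against 6.08% and 14.6% of all genes. The median of the 31 was -0.04. The kinase SYK, which binds phosphorylated ITAMs, rose at the RNA level: Syk was at 263.5, 210.3, 249.4 and 351.7 RPM in WT and at 503.6, 482.6, 544.9 and 594.5 RPM in DKO (1.00, adjusted P = 0.0064, against WT replicate 4 0.59). Cd300lb, an activating lipid receptor, rose by 1.01 in the whole comparison, but WT replicate 4 alone was at 260.7 RPM, among the DKO values, and the fold change against it was 0.09. The adaptors themselves were not called: Fcer1g, the common gamma chain, had a log2 fold change of 0.38, Tyrobp, which encodes DAP12, of -0.36, and Hcst, which encodes DAP10, of -0.53.

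The members that fell included the C-type lectins Clec4e, Clec4d and Clec7a. Clec4e, the receptor Mincle for glycolipids and dead cells, was at 149.3, 161.7, 144.8 and 130.1 RPM in WT and at 80.6, 110.2, 85.08 and 90.13 RPM in DKO, without overlap, and fell by 0.68 on the log2 scale (adjusted P = 0.017). Its partner Clec4d fell further (-1.56, adjusted P = 0.012). Clec7a, the beta-glucan receptor Dectin-1, was at 472.7, 542.5, 511.5 and 605.7 RPM in WT and at 443, 351.2, 301.2 and 323.5 RPM in DKO (-0.60, adjusted P = 0.035), a call that was lost with RLE scaling and without either DKO replicate 3 or 4. It was lower still in Slc29a3-/- libraries, at 180.7 ± 25.85 RPM, and DKO was above them by 0.96 (adjusted P = 0.0042). Trem1, an amplifier of myeloid activation, and Cd300lf, an inhibitory lipid receptor, fell by 1.22 and by 1.40. Clec4e and Clec7a are named here after their values were seen.

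Of the 44 gene lists, MHC class II and costimulation had the largest share of members that rose, 8 of 18. Their products carry peptides from the endocytic pathway to CD4+ T cells, and most are switched on together by the coactivator CIITA through a conserved promoter module that holds a CCAAT box, called the Y box. H2-Aa and H2-Eb1 encode an alpha and a beta chain of the classical molecules, and their promoters are shown because the mean levels of both genes had the same order over the 3 genotypes, lowest in Slc29a3-/- and highest in DKO. The sequences are the 150 bases before the RefSeq start on GRCm38.p6, 5′ to 3′ on the strand of the gene, with ATTGG or CCAAT in capitals:
H2-Aa, chr17:34287824-34287973, minus strand: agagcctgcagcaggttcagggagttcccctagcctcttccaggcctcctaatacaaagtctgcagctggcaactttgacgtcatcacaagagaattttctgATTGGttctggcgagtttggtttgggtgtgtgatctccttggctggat
H2-Eb1, chr17:34305717-34305866, plus strand: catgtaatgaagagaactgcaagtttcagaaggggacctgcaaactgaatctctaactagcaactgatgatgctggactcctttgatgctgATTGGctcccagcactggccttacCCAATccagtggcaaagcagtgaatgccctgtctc
The first ATTGG begins 48 bases before the start of H2-Aa and 59 before that of H2-Eb1. As ATTGG is CCAAT read on the other strand, the search covered both strands, and 24.5% of 32851 promoters held such a match in the same window. The match describes these letters only. H2-Ab1 is named here without a sequence.

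H2-Aa was at 353.3, 409.3, 389.6 and 847.4 RPM in WT and at 437.4, 738.7, 924.9 and 1448 RPM in DKO, with a log2 fold change of 0.79 (unadjusted P = 0.031, adjusted P = 0.13 by limma). H2-Eb1 was at 403.1, 508.6, 463.6 and 634.9 RPM in WT and at 474.9, 830.4, 849.9 and 1222 RPM in DKO (0.69, adjusted P = 0.11); it is named after its values were seen. For both genes WT replicate 4 lay within the DKO range. Cd74, the invariant chain that guides class II molecules to endosomes, was at 3461, 3762, 3678 and 2202 RPM in WT and at 4272, 6637, 6483 and 11548.1 RPM in DKO. It did not overlap and rose by 1.08 (adjusted P = 0.032), and by 1.62 against WT replicate 4. H2-Eb2 rose by 1.21 (adjusted P = 0.038) and H2-Ab1 by 1.31 (adjusted P = 0.053).

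Over the list, 8 genes rose and 2 fell, with a median of 0.57, where 6.08% of all genes rose and 14.6% fell. Against WT replicate 4 alone, 1 rose and 1 fell, and the median was -0.19, with H2-Aa at -0.06, H2-Ab1 at -0.17 and Ciita, the coactivator, at -0.69. Without DKO replicates 3 and 4, 2 rose, 1 fell and the median was 0.22. The summed level did not overlap: it ran from 6503 to 7479 RPM in WT, with WT replicate 4 lowest, and from 7922 to 17906 RPM in DKO. This rested on Cd74: without it, the sum of the other 18 genes was 3420, 3717, 3437 and 4301 RPM in WT and 3650, 4710, 5020 and 6358 RPM in DKO, which overlapped, with WT replicate 4 the highest WT library. Of 12 markers of conventional dendritic cells, the professional class II cells of the spleen, 1 rose, 2 fell and 9 were not called, with medians of 0.17 and, against WT replicate 4, -0.22. The sum of the 13 in the table was 110.1, 138.3, 117.5 and 282.5 RPM in WT and 171.5, 201.1, 239.2 and 257.6 RPM in DKO. Zbtb46, the factor that marks this lineage, was at 4.636 to 9.963 RPM in WT and at 6.433 to 11.21 RPM in DKO, and Clec9a, a receptor of its cross-presenting branch, at 12.93 to 18.55 and at 10.66 to 21.76 RPM, and neither was called. WT replicate 4, the WT library with the highest H2-Aa, H2-Ab1 and H2-Eb1, also had the highest dendritic cell sum. The part of these cells in the class II result was not tested.

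**Figure D2:**
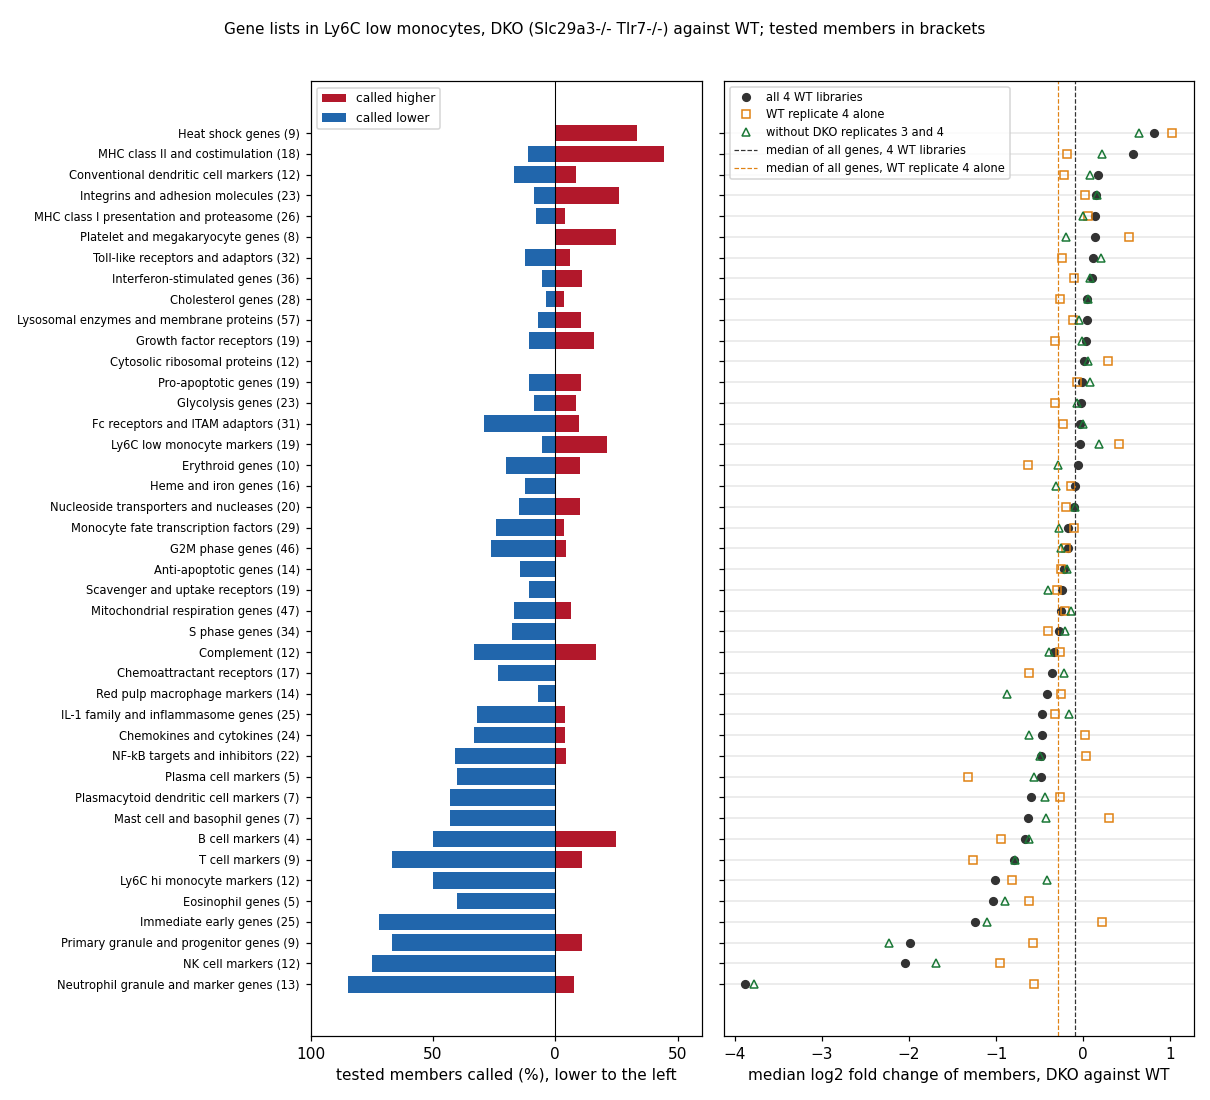
Left, percent of the tested members of each gene list called higher (red, to the right) or lower (blue, to the left) in DKO than in WT Ly6C low libraries; right, median log2 fold change of the tested members with all libraries, against WT replicate 4 alone and without DKO replicates 3 and 4. The neutrophil list (11 of 13 lower), the immediate early list (18 of 25 lower) and the NK cell list (9 of 12 lower) hold the most decreases for their size, and the MHC class II list (8 of 18) and the heat shock list (3 of 9) the most increases.

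The largest decreases were in genes of neutrophils. S100a9 (chromosome 3, 90692632 to 90695721), which encodes a subunit of the antimicrobial protein calprotectin, was at 499, 863.9, 394.2 and 22.99 RPM in WT and at 8.399, 0, 2.683 and 8.629 RPM in DKO. Its partner S100a8 was at 135.7, 328.5, 139.1 and 10.27 RPM in WT and at 5.007, 0.318, 0.316 and 0.32 RPM in DKO. They fell by 5.89 ± 0.98 and 5.58 ± 0.87 on the log2 scale (adjusted P = 0.0071 and 0.005). WT replicate 4 was far below the other WT libraries for both, and against it alone the fold changes were -2.49 and -2.55. Lcn2, a siderophore-binding granule protein, Retnlg, a resistin-like protein of neutrophils, and Mmp8, the neutrophil collagenase, fell by 3.90, 3.88 and 3.50, and Ngp and Ltf, both of secondary granules, by 4.85 and 4.36.

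Over the list, 11 of 13 neutrophil genes fell, 10 of them at an adjusted P under 0.05, where 14.6% of all genes fell and 6.08% rose. Only Csf3r, the G-CSF receptor, rose (0.69, adjusted P = 0.088). The median was -3.88, and -0.56 against WT replicate 4, where 2 genes were called. The sum of the list was 2175, 3300, 2003 and 1119 RPM in WT and 905.2, 722.6, 1219 and 948.9 RPM in DKO, so that the groups overlapped through WT replicate 4, while Slc29a3-/- libraries had 891.9 ± 87.76 RPM and Ly6C hi WT libraries 32394.4 ± 4206 RPM. In DKO replicate 2, S100a9, S100a8, Lcn2, Retnlg, Ngp and Ltf were each at 1.35 RPM or less, and Csf3r was at 146 RPM. Most of the sum in that library thus came from members other than these decreased genes. Ly6g, the defining surface marker, was at 0 in DKO, as above. S100a8, S100a9 and Mmp8 are also expressed by Ly6C hi monocytes. The part of neutrophils or of Ly6C hi cells among the sorted cells was not tested.

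In the whole comparison NK cell genes fell as a group too. Il2rb, the beta chain shared by the IL-2 and IL-15 receptors, was at 42.56, 43.37, 28.73 and 17.93 RPM in WT and at 13.89, 3.018, 3.63 and 0.879 RPM in DKO, without overlap (-2.76, adjusted P = 0.0093, and -1.99 against WT replicate 4). Klre1, an NK lectin, fell by 2.81, Gzma, the serine protease granzyme A, by 2.45, and Ncr1, the activating receptor NKp46, by 2.16. Of 12 NK markers 9 fell and none rose, with a median of -2.05, and -0.96 against WT replicate 4. Klrd1, which encodes CD94, differed from these, at -0.20. None of the 12 NK markers was called with the barcode term, where their median was -0.82. The sum was 303.5, 277.7, 196 and 123.6 RPM in WT and 63.85 to 119.4 RPM in DKO. Of 9 T cell markers tested 6 fell and 1, Cd4, rose (1.16, adjusted P = 0.15). This call was lost without any single one of WT replicates 1 to 3 or DKO replicates 1 to 3 (0.81 to 1.12), and the fold change was -0.91 against WT replicate 4. With the barcode term, none of the 9 T cell markers was called. Their levels were low, with a sum of 56.65 ± 30.5 RPM in WT and 50.09 ± 12.3 in DKO, and without Cd4, of which WT replicate 4 held 57.63 RPM and the other WT libraries 5.696 to 9.645, the sum was 27.11 to 44.22 RPM in WT and 13.5 to 25.1 RPM in DKO. Cd3e, a chain of the T cell receptor complex, was at 0.629, 2.47, 1.335 and 4.828 RPM in WT and at 0.158 or less in DKO and fell (-1.49, adjusted P = 0.021). CD3+ and NK1.1+ cells were removed before the sort, and the part of residual lymphocytes in these decreases was not tested.

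**Figure D3:**
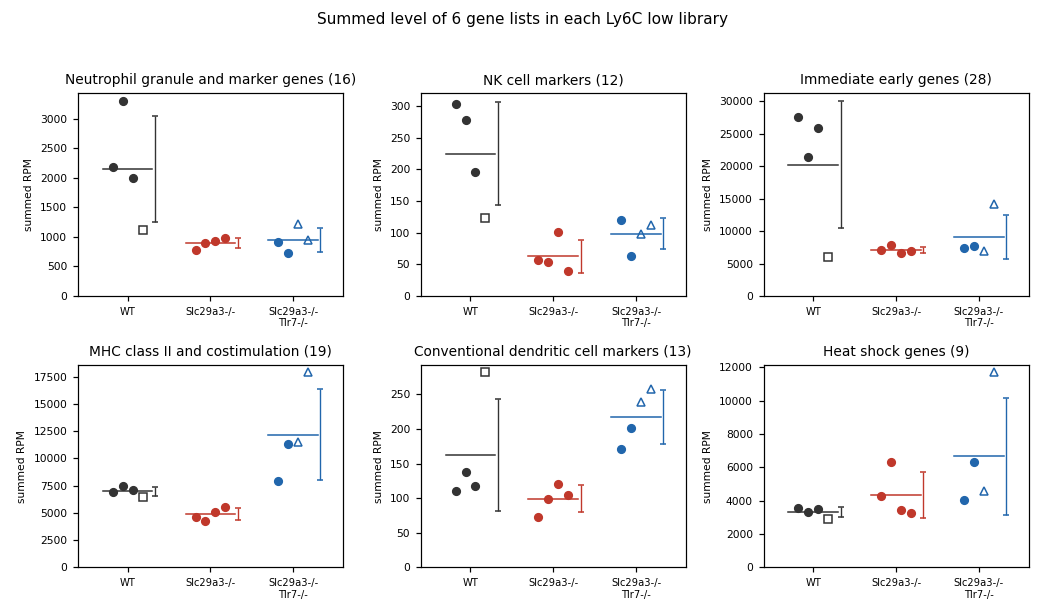
Summed RPM of gene lists in each Ly6C low library by genotype; open squares are WT replicate 4 and open triangles DKO replicates 3 and 4. WT replicate 4 lies near the DKO libraries for the neutrophil list (1119 RPM) and the immediate early list (6072 RPM), and DKO replicate 4 is highest for the heat shock list (11705.5 RPM).

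Other decreases among the largest were Retnla, a resistin-like protein of alternatively activated macrophages (-3.28), Slfn4, a Schlafen gene of myeloid cells (-2.33), and Rhob, a small GTPase of endosomes (-2.76), with adjusted P of 0.016, 0.0092 and 0.025. Against WT replicate 4 they were at -1.26, -1.21 and -1.76. Retnla varied within WT, at 42.49, 5.833, 27.6 and 2.146 RPM, and was at 1.998 RPM or less in DKO. Cmklr1, the receptor for the chemoattractant chemerin, was at 52.77, 41.31, 49.66 and 50.27 RPM in WT and at 8.399, 15.09, 14.92 and 28.52 RPM in DKO and fell by 1.59 (adjusted P = 0.011, and -1.65 against WT replicate 4). C5ar1, the receptor for complement fragment C5a, was at 70.8, 49.07, 71.85 and 94.42 RPM in WT and at 26.57, 48.13, 36.15 and 25.65 RPM in DKO and fell by 1.06 (adjusted P = 0.019). Neither overlapped. Of 17 chemoattractant receptors measured, 4 fell and none rose, where 14.6% of all genes fell and 6.08% rose.

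Nlrp3, the sensor of the inflammasome that activates caspase-1, was among the decreases with the least spread. It was at 98.48, 107.1, 104 and 103.8 RPM in WT and at 53.22, 59.01, 51.93 and 51.14 RPM in DKO. WT replicate 4 did not stand apart here, and the gene fell by 0.93 ± 0.14 on the log2 scale (adjusted P = 0.0043), with -0.94 against WT replicate 4 and -0.87 without DKO replicates 3 and 4. The Slc29a3-/- mean was 37.57 RPM, and DKO did not differ from it by a called amount (0.52, adjusted P = 0.081). Nlrp1b, another inflammasome sensor, fell as well (-1.13, adjusted P = 0.041). Il1b, the main cytokine product, was not called (0.29), at 310.9 to 367.3 RPM in WT and 207.8 to 769.8 RPM in DKO, nor was Casp1 (-0.30). Of 25 IL-1 family and inflammasome genes, 8 fell and 1 rose, where 14.6% of all genes fell and 6.08% rose. The median of the 25 was -0.47.

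Immediate early genes, which cells switch on within minutes of a stimulus, depended on which WT library was used. Fos was at 3399, 2446 and 2870 RPM in WT replicates 1 to 3 and at 38.93 in WT replicate 4, and it was at 46.52, 75.77, 17.99 and 401.2 RPM in DKO. Egr1 was at 402.9, 279.1, 433.1 and 8.43 RPM in WT and at 9.207, 11.99, 12.71 and 38.11 RPM in DKO. WT replicate 4 thus lay within or below the DKO values, and the log2 fold changes against it were 0.86 and 0.79, whereas those of the whole comparison were -3.77 and -3.17 (adjusted P = 0.058 and 0.048). Fosb, Dusp1, a phosphatase of MAP kinases, and Atf3, a stress factor, turned in the same way, from -4.31, -2.93 and -2.59 to 0.95, 0.23 and 0.46. In the whole comparison 18 of 25 immediate early genes fell and none rose, where 14.6% of all genes fell and 6.08% rose. The median of the 25 was -1.24, and 0.22 against WT replicate 4.

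Several targets and inhibitors of NF-kB also depended on the WT library. Cxcl2, a neutrophil chemoattractant, was at 46.69, 48.93, 39.62 and 0.307 RPM in WT and at no more than 1.358 RPM in DKO (-3.54, adjusted P = 0.03, against WT replicate 4 0.31). Nfkbia and Tnfaip3, which encode the inhibitors IkB-alpha and A20, fell by 1.40 and by 2.18 and were at -0.17 and 0.02 against WT replicate 4. Pim1, a kinase induced by cytokines, went the same way (-1.44 and 0.23). Of 22 NF-kB genes 9 fell and 1 rose, where 14.6% of all genes fell and 6.08% rose. The median of the 22 was -0.49, and 0.03 against WT replicate 4. For Cxcl2, Nfkbia, Tnfaip3 and Pim1, barcode range and level changed together in WT, so that genotype and barcode cannot be told apart with WT replicates 1 to 3. Ddx3y split the WT libraries in the same place, so that barcode and the sex-linked signal cannot be told apart in WT either. Tnf, an inflammatory cytokine, differed from these: it fell (-1.04, adjusted P = 0.039) at levels of 1.475 to 2.196 RPM in WT and 0 to 1.292 in DKO, WT replicate 4 (1.609 RPM) lay among the other WT libraries, and the fold change against it was -0.95.

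**Figure D4:**
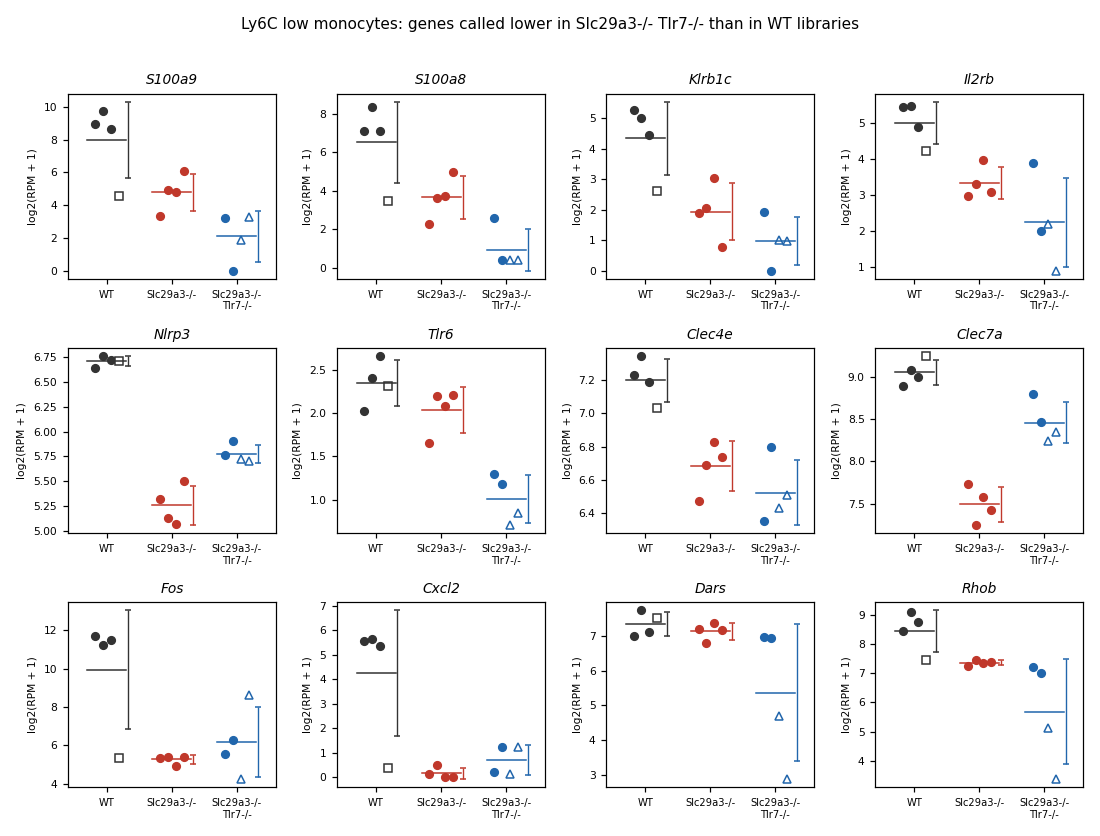
Log2(RPM + 1) of 12 genes called lower in DKO than in WT Ly6C low libraries, 1 point per library, with means and SD of 4 libraries; open squares are WT replicate 4 and open triangles DKO replicates 3 and 4. For Fos the square lies with the DKO points, for Nlrp3 with the other WT points, and for Dars and Rhob the triangles lie far below DKO replicates 1 and 2.

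Toll-like receptors and their adaptors, the pathway that holds the deleted sensor, were called about as often as all genes (6.08% higher and 14.6% lower): 2 of 32 measured rose, 4 fell, and the median was 0.11. Tlr4, the receptor for lipopolysaccharide, was at 52.91, 51.19, 59.49 and 112.4 RPM in WT and at 124.6, 102.7, 124.9 and 148.8 RPM in DKO (0.92, adjusted P = 0.027). WT replicate 4 reached the DKO range, and the fold change against it was 0.14. Cd14, the co-receptor of TLR4, was at 95.33, 146.7, 110.3 and 28.51 RPM in WT and at 13.08, 36.77, 18.94 and 15.98 RPM in DKO and fell (-2.00, adjusted P = 0.022, against WT replicate 4 -0.52).

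Tlr6, which pairs with TLR2 for bacterial lipopeptides, was at 3.075, 4.323, 5.338 and 3.985 RPM in WT and at 1.454, 1.271, 0.631 and 0.799 RPM in DKO. It fell by 1.35 (adjusted P = 0.0084) and was the member that also fell against WT replicate 4 (-1.31) and against Slc29a3-/- (-1.03, adjusted P = 0.034). Traf6, the ubiquitin ligase downstream of MyD88, fell by 0.67 (adjusted P = 0.03). The other nucleic acid sensors were not called: Tlr8 had a log2 fold change of 0.05, Tlr9 of 0.28 and Tlr13 of 0.18, and Unc93b1, the chaperone that carries them to endosomes, of -0.23. For Tlr13 the value rested on single libraries, with 295.8 RPM in WT replicate 4 and 55.61 to 263 RPM in DKO.

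Of 20 transporters and enzymes of nucleosides and nucleic acids measured, 2 rose and 3 fell, and none was called against WT replicate 4. Over all genes, 6.08% rose and 14.6% fell. Samhd1, which breaks down deoxynucleotides, was at 380.1, 229.7, 321.7 and 662.5 RPM in WT and at 738.1, 859.2, 906.6 and 1388 RPM in DKO, without overlap, and rose by 1.35 (adjusted P = 0.016), with 0.51 against WT replicate 4. Dnase1l3, an extracellular DNase that dendritic cells also make, rose by 1.42 (adjusted P = 0.049), with 25.46 to 27.05 RPM in WT replicates 1 to 3, 120.9 in WT replicate 4 and 74.81 to 155.6 in DKO. Pld3, a lysosomal exonuclease for single-stranded DNA and RNA, fell by 0.94 (adjusted P = 0.042), and Aprt, which salvages adenine, by 1.08 (adjusted P = 0.032). The related exonuclease gene Pld4 was not called (-0.14), nor was Slc29a1, the nucleoside transporter of the cell surface (0.46).

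Of 57 lysosomal genes tested, 6 rose and 4 fell, where 6.08% of all genes rose and 14.6% fell. Their median was 0.04, and -0.12 against WT replicate 4. Summed over the 59 measured, the level was 23845.3 to 25261.7 RPM in WT and 26756.3 to 28713.6 RPM in DKO, without overlap. Ppt1, the palmitoyl-protein thioesterase, and Ctsh, cathepsin H, rose by 0.70 and 0.68 (adjusted P = 0.051 and 0.056), and Lamp1, a membrane glycoprotein, was below the fold threshold (0.57). Among 36 interferon-stimulated genes, 4 rose and 2 fell (median 0.10), against 6.08% and 14.6% of all genes. Ifit2, an RNA-binding antiviral protein, was at 1.896 to 4.215 RPM in WT and at 5.734 to 16.78 RPM in DKO and rose by 1.33 (adjusted P = 0.031), Rsad2, the antiviral enzyme viperin, rose by 0.88 (adjusted P = 0.067), and Irf7, a factor downstream of TLR7, was not called (0.18).

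Of 46 G2M genes 12 fell and 2 rose (median -0.18), where 14.6% of all genes fell, and 3 of the 12 also fell against WT replicate 4. Of 34 S phase genes 6 fell, near the share of all genes, and none rose (median -0.28); none of the 6 passed the adjusted P or fell against WT replicate 4, and the summed level was 664.5 ± 65.82 RPM in WT and 660.3 ± 41.82 in DKO. Cdc20, an activator of the anaphase-promoting complex, was at 3.984, 10.36, 3.371 and 3.679 RPM in WT and at 1.454, 1.985, 0.868 and 0.08 RPM in DKO and fell by 1.57 (adjusted P = 0.022). Plk1, a mitotic kinase, fell by 1.53 (adjusted P = 0.017) and Mki67, the proliferation marker, by 0.89 (adjusted P = 0.073), while Top2a, a topoisomerase of dividing cells, was at -0.20. Among 29 transcription factors of monocyte fate, 7 fell and 1 rose, against 14.6% and 6.08% of all genes. Runx3 and Cebpd fell by 1.37 and 1.34 (adjusted P = 0.037 and 0.016).

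Some decreases came from DKO replicates 3 and 4. Of the 159 genes at which both lay more than 2-fold below the other Ly6C low libraries, 114 were called lower in the whole comparison and 8 without these replicates, against 14.6% and 10.3% of all genes tested; the count describes the genes so chosen. Dars, the aspartyl-tRNA synthetase, was at 126.4, 212.1, 136.1 and 180.6 RPM in WT and at 124.2, 120.7, 24.62 and 6.312 RPM in DKO. Its log2 fold change was -1.97 with all libraries and -0.39, not called, without them. Pym1, which recycles exon junction complexes, and Uqcrb, a subunit of respiratory complex III, went from -1.93 and -1.86 to -0.56 and -0.60. Lgmn and Ctsd, both lysosomal proteases, had the same shape, from -1.68 and -1.20 to -0.26 and -0.51. Rhob was lower in DKO replicates 1 and 2 as well, at 149.1 and 128.1 RPM against 173.4 to 545.6 in WT (-1.32). Of 47 genes of mitochondrial respiration, 8 fell and 3 rose with all DKO libraries, near the 14.6% and 6.08% of all genes. Without replicates 3 and 4, 2 fell and 2 rose, where 10.3% and 4.86% of all genes did. The summed level of the 49 measured was lower in DKO replicates 1 and 2 as well. It was 6052 to 6356 RPM in WT and 5868, 5767, 5373 and 5265 RPM in DKO.

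Heat shock genes separated the DKO libraries in a different order. Hspa1a, an inducible HSP70, was at 8.047 to 34.04 RPM in WT and at 11.06, 365.2, 13.73 and 2342 RPM in DKO, and Hspa1b at 12.57 to 39.28 RPM in WT and at 26.97, 650, 13.18 and 269.8 RPM in DKO. They were high in DKO replicates 2 and 4 and not in replicates 1 and 3, and neither was called. Hsp90ab1, a constitutive chaperone, was at 1989 to 2183 RPM in WT and at 2734, 3899, 3359 and 7460 RPM in DKO and rose by 0.95 (adjusted P = 0.051). Of 9 heat shock genes 3 rose and none fell, with a median of 0.81, where 6.08% of all genes rose and 14.6% fell. DKO replicate 4 also had the highest Cd74 and H2-Aa of the 8 libraries, and the part of the state of that library in those results was not tested.

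Set directly against Slc29a3-/- Ly6C low libraries, DKO showed 301 genes (2.92%) higher and 1113 (10.8%) lower. No WT library entered these fold changes, but the WT libraries entered the gene filter and the estimate of spread behind the P values. The class II list had 12 of 18 genes higher and none lower, with a median of 1.11 against -0.08 for all genes: Cd74 was higher by 1.90 (adjusted P = 0.0024), H2-Aa by 1.84 (adjusted P = 0.0081), H2-Eb1 by 1.77 (adjusted P = 0.0036) and H2-Eb2 by 2.34 (adjusted P = 0.0015). Its sum was 4254 to 5513 RPM in Slc29a3-/- libraries and 7922 to 17906 RPM in DKO. Without Cd74 it was 2846 to 3276 RPM and 3650 to 6358 RPM. In this comparison, 8 of 12 dendritic cell markers were higher and none lower, with a median of 1.17. Zbtb46 was higher by 1.56, Clec9a by 1.49 and Cd209a, another dendritic cell lectin, by 1.58 (adjusted P = 0.006, 0.0064 and 0.018). Their sum was 73.31, 99.04, 120 and 104.3 RPM in Slc29a3-/- against 171.5 to 257.6 RPM in DKO. Erythroid genes were lower in DKO than in Slc29a3-/-, with 7 of 10 lower, none higher and a median of -1.57. Against WT, 1 of these 10 rose and 2 fell, with a median of -0.06. The erythroid sum was 99.18 to 177.1 RPM in WT, 58.55 to 142.9 RPM in DKO and 210.8 to 272.4 RPM in Slc29a3-/-. The part of dendritic cells in the class II difference was not tested.

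The DKO effect was also set against that in Ly6C hi monocytes. In a model of all 24 libraries, the difference between the DKO effect in Ly6C low and in Ly6C hi cells was called higher for 387 of 11042 genes (3.5%) and lower for 474 (4.29%), of which 4 and 3 passed the adjusted P. Among the genes named here, Itgb3 rose more in Ly6C low cells (difference 1.23, adjusted P = 0.048) and S100a9 fell more (-5.90, adjusted P = 0.046). Neither passed with RLE scaling (adjusted P = 0.055 for both) or with WT replicate 4 of each subset as the only WT library (adjusted P = 0.93). For AY761185, LOC105247310, Apol8 and Spata25 the difference was not called (0.89, 0.71, 1.38 and 0.79, adjusted P between 0.63 and 0.80).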

How the data were processed

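The authors deposited a table of RPM (reads per 1000000) for 23930 amplicons in 24 libraries; whether the AmpliSeqRNA plug-in of the labels or the Cutadapt, STAR, HTSeq and DESeq2 steps of the paper's methods wrote it is not stated. Its placeholder of 0.0001 RPM was read as 0, and 27 symbols turned into dates were repaired. Positions are from GENCODE vM21 (mm10), promoters from RefSeq. Genes that reached 1 RPM in 4 or more of the 12 Ly6C low libraries were fitted as log2(RPM + 1) on genotype with limma 3.58.1 in R 4.3.3, with an intensity trend, so that a fold change understates that of low genes. Calls needed more than a 1.5-fold change with P under 0.05 before adjustment. The paper's DESeq2 test needs counts and was not repeated. The script was tested on simulated data.

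Named were the mutated genes and those of the sort, in each direction the 12 genes with the largest fold change that averaged 10 RPM or more over the 8 libraries, were called, did not overlap and kept a fold over 1.5 against WT replicate 4, the 5 largest whatever that fold, and for each of 44 gene lists its examples and up to 4 called members in each direction. Not every such gene is reported. The comparison, lists and rules were chosen with earlier results of these data known. Alternatives were other scalings, filters, pseudocounts and sample sets, a barcode term, a replicate block and each library left out. Python 3.11.15 was used for tables and figures.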

Additional observations from a re-analysis of the deposited data

Results flagged for a closer look

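In groups of 4 libraries, a value was marked where its gap to the nearest other library took more of the range of the group than Dixon's 95% limit, which chance does in about 1 in 20 groups. Of 238 groups of named genes 31 (13%) were marked, 19 of them for WT replicate 4. This library was above the other WT libraries for Ccr2 (223.4 RPM), Cd4 (57.63), Cd300lb (260.7), H2-Aa (847.4), H2-Ab1 (498.4), Ciita (115.3), Cd209a (17.32), Dnase1l3 (120.9), Casp1 (103), Tlr4 (112.4), Tlr9 (146.8), Tlr13 (295.8), Nlrp1b (39.09), Ctsh (378.3) and Ddx3y (196.8). It was below them for Eno3 (374.9 RPM), Dusp1 (157.8), Atf3 (48.97) and Pim1 (450.9). WT replicate 2 stood alone for F13a1 (46.94 RPM), Cdc20 (10.36) and, on the low side, Rsad2 (2.745).

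DKO replicate 4 was above the other DKO libraries for Hspa1a (2342 RPM), Fos (401.2), Egr1 (38.11), Dusp1 (778.9) and Retnla (1.998). DKO replicate 1 was above them for S100a8 (5.007 RPM), Mmp8 (4.038) and Gzma (14.7), and DKO replicate 2 for Pecam1 (631.5).

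The DKO effect differed between the Ly6C low and Ly6C hi subsets for Itgb3, by 1.23 on the log2 scale, and for S100a9, by -5.90 (limma interaction, adjusted P = 0.048 and 0.046). As given above, neither difference passed the adjusted P with RLE scaling.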

How the results depend on the processing

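The counts of called genes depended on the WT libraries. Against WT replicate 4 alone there were 179 higher genes (5 at the adjusted P) and, at the adjusted P, 1 lower, where that lone library was assumed to vary like the other groups; with a term for barcodes 11 to 16 there were 268 higher and, at the adjusted P, 18 and 43. Leaving out 1 library at a time gave 375 (without WT replicate 2) to 1129 (without WT replicate 4) higher and 1137 to 1899 lower genes, 28 to 875 and 72 to 1078 at the adjusted P, 58 to 123 and 416 to 934 also called against WT replicate 4, and 251 to 479 higher and 596 to 1674 lower against Slc29a3-/-. Without DKO replicates 3 and 4, added after seeing the data, 66 and 301 passed the adjusted P, and 532 were lower than in Slc29a3-/-. At the adjusted P, RLE and TMM scaling gave 441 and 355 higher genes, all 24 libraries in 1 model 453 and 1040, no filter 134 and 362, and only the 8 WT and DKO libraries 18 and 31. A mean of at least 10 RPM gave 919 lower, 392 of them at the adjusted P, and 296 lower also against WT replicate 4. That last count was 180 higher and 175 lower with RLE and 147 and 223 with TMM scaling. The difference between subsets was called higher for 107 genes with WT replicate 4 of each subset alone.

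Among the named genes called in at least 1 of the 2 fits compared, signs turned against WT replicate 4 alone for Cd4 (-0.91), Nr4a1 (1.07), Eno3 (0.11), Itga6 (0.07), H2-Aa (-0.06), H2-Ab1 (-0.17), Ciita (-0.69), Dnase1l3 (-0.20), Csf3r (-0.15), Fos (0.86), Fosb (0.95), Egr1 (0.79), Dusp1 (0.23), Atf3 (0.46), Cxcl2 (0.31), Tnfaip3 (0.02) and Pim1 (0.23), and for the subset difference of H2-Eb2 (-0.06). With the barcode term they turned for Nr4a1 (1.20), Cd300lb (-0.01), Fos (0.32), Fosb (0.68), Egr1 (1.16), Dusp1 (0.72), Atf3 (0.54), Cxcl2 (1.25), Tnfaip3 (0.02), Pim1 (0.44) and Tlr13 (-1.07). The cause was not tested. Without DKO replicates 3 and 4, Eno3, Selplg, Itgax, Clec7a, H2-Aa, H2-Ab1, H2-Eb1, Dnase1l3, Dars, Pym1, Uqcrb, Ppt1, Ctsh, Lgmn, Ctsd, Mki67, Csf1r and Csf3r were no longer called.

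Same-numbered WT and DKO replicates did not deviate together (correlations -0.17 to 0.08), so the numbers do not pair the samples. A replicate block gave 626 higher and 1442 lower genes, 183 and 444 at the adjusted P, and every library but replicate 2 correlated best with another number. Count tests with DESeq2 or edgeR were not run, because the values are RPM.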
